A study of Mus musculus with 9 samples.

Results

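Levels of 5 UDP-glucuronosyltransferase genes, Ugt1a10, Ugt2b38, Ugt2b37, Ugt3a1 and Ugt3a2, were described in single-nucleus RNA counts of mouse kidney after ischemia-reperfusion injury (IRI) and in control kidney. They were taken by name and were 5 of the 19858 genes listed in at least 1 of the 2 deposited tables of unique molecular identifiers (UMIs). All of them were in both tables, with 75 UMIs of Ugt1a10, 2338 of Ugt2b38, 9486 of Ugt2b37, 754 of Ugt3a1 and 2000 of Ugt3a2 in the IRI table. The control table held 2881 UMIs of Ugt1a10, 12130 of Ugt2b38, 8017 of Ugt2b37, 6346 of Ugt3a1 and 7478 of Ugt3a2. The genes were selected on earlier results of these data, which are taken here to include every comparison of IRI with control nuclei and of the 2 states, so their levels in IRI and control nuclei, and in the injured and uninjured states, are given as descriptions with no test. The difference between the 2 times after injury and the difference between tubule segments of the controls were tested. Whether segment or day also had a part in the selection is not known here, and the p-values do not allow for it.

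The 9 mice were males of 11 to 19 weeks, and each gave 1 library of sorted GFP-positive kidney nuclei. IRI kidneys were taken at day 7 (2 mice) or day 28 (3 mice) after both renal pedicles were clamped for 18 min. These mice were Krt20T2A-CE; INTACTnuGFP/+, in which tamoxifen (0.05 mg/g) switches on a nuclear GFP in cells that express Krt20, which encodes a keratin and is switched on in tubule cells after injury, and in cells that descend from them. The 4 controls, of which controls 2 to 4 had sham surgery and control 1 had none, were Six2TGC; Rosa26rtTA; pTRE-H2BeGFP mice on doxycycline food (625 mg/kg), in which a histone-bound GFP marks the whole nephron lineage. Injury therefore differed together with mouse line, inducing agent, sorted population and count table, and these cannot be told apart in any IRI-control comparison. The IRI counts listed 19342 genes and the control counts listed 17455, with 16939 genes in both. Whether the IRI and control counts were made in the same way was not tested. The 2 times after injury share line, agent, sort and count table.

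UDP-glucuronosyltransferases are membrane enzymes of the endoplasmic reticulum that transfer glucuronic acid from UDP-glucuronic acid to bilirubin, steroids, bile acids and drugs, which makes these molecules soluble enough to be excreted. In the kidney the enzymes are best known from the proximal tubule, where glucuronides are formed and also taken up from blood by organic anion transporters. Enzymes of the UGT1A and UGT2B families carry out this reaction. The human enzymes of the UGT3A family use other UDP-sugars: UGT3A1 transfers N-acetylglucosamine and UGT3A2 transfers glucose or xylose. Genes of the UGT1A family lie in 1 locus in which alternative first exons, each with its own promoter, are spliced to the same downstream exons.

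In the GENCODE release 21 annotation of GRCm38, the build of the mm10 reference, Ugt1a10 is a protein-coding gene at chr1:88055388-88219004 on the plus strand. That span overlapped 16 other genes on the same strand, among them Ugt1a1, Ugt1a2, Ugt1a5, Ugt1a6a, Ugt1a6b, Ugt1a7c, Ugt1a8 and Ugt1a9, and 90.6% of it was shared with them. Of the 90-base words of its transcripts, 53.2% also occurred in transcripts of other genes, and 82.1% of those in the last 500 bases did. The libraries count the 3′ ends of transcripts, and a read within the shared sequence cannot separate Ugt1a10 from its neighbours. How the counting assigned such reads is not stated, and the Ugt1a10 values depend on it. Whether such reads were assigned alike for IRI and control nuclei was not tested. Ugt2b37 (chr5:87240493-87254804) and Ugt2b38 (chr5:87409942-87424203) are on the minus strand, 155.1 kb apart. Of the 90-base words of Ugt2b38, 25.2% were shared with Ugt2b37 or Ugt2b5, and for Ugt2b37 2.2% of the words were shared, with none shared in the last 500 bases of either. Ugt3a1 (chr15:9276888-9315032) and Ugt3a2 (chr15:9335550-9370955) are neighbours on the plus strand, 20.5 kb apart, and shared 0.1% of their words.

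The promoters of Ugt2b38 and Ugt2b37 are shown because these close relatives had unlike levels in injured-state nuclei, given below, although their upstream sequences are nearly the same. They come from RefSeq's promoter table (GRCm38.p6), which held 4 of the 5 members, and Ugt3a2 is named only. The 250 bases before RefSeq's transcription start are printed, 5′ to 3′ on the gene's strand. Capitals mark the bases that differ between them when the sequences are aligned without gaps:

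Ugt2b38 (chr5:87424204-87424453, minus strand): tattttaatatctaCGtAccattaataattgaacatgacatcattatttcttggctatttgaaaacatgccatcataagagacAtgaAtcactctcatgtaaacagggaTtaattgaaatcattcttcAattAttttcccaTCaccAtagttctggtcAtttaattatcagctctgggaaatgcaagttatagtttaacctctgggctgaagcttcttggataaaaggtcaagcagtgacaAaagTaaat
Ugt2b37 (chr5:87254789-87255038, minus strand): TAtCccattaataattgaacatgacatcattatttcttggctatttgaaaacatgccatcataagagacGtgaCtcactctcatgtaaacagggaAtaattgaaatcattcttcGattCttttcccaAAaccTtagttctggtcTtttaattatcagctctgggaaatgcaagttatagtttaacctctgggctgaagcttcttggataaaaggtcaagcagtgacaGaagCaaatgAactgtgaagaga

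From 250 bases before to 50 bases after the start, the 2 promoters were 94.8% identical (271 of 286 aligned bases, with an offset of 14 bases). The other pairs among the 4 promoters reached 35.8% to 37.3%.

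The 27738 nuclei fell into 36 clusters made without any UDP-glucuronosyltransferase gene, of which 23 clusters with 22589 nuclei carried proximal tubule markers and are called proximal tubule-like (PT-like). An injured state was assigned to the 9 of these whose injury markers, such as Havcr1 and Vcam1, scored above the proximal tubule markers, and an uninjured state to the other 14. Libraries held 1833617 to 14641038 UMIs, and control 4 was the shallowest, with a median of 668 UMIs per nucleus against 1185 to 4174 in the others. Injured-state nuclei made up 67.3% and 58.3% of the PT-like nuclei at day 7, 71.4%, 78.4% and 77.8% at day 28, and 4.63% to 10.8% in controls. In PT-like sums, given in CPM (UMIs per 1000000 UMIs of the class), the 10 proximal tubule markers added up to 2873 to 4785 CPM in IRI mice and 13477 to 14364 in controls, and the 10 injury markers to 4374 to 5424 in IRI mice and 111 to 176 in controls. The 6 podocyte markers added up to 51.1 to 105 CPM in the PT-like sums of IRI mice and 5.6 to 9.83 in those of controls. Malat1, a nuclear RNA, took 6.74% to 17.6% of the UMIs of IRI libraries and 19.8% to 24.0% of those of controls. The part of either in the IRI-control differences was not tested. By their cell barcodes the 4 controls and day 28 mouse 1 came from the v2 kit and the other 4 IRI libraries from the v3 kit, so IRI and kit went together but for that mouse. No 2 libraries shared more than 26 cell barcodes. Levels below are CPM of the named class in a library, and a log2 change comes from the edgeR fit over all genes.

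In PT-like nuclei all members but Ugt2b37 were at lower levels in every IRI mouse than in every control. The share of all genes without overlap between the groups is not given here. Ugt1a10 was the most extreme, with 3.32 and 2.26 CPM at day 7, 0, 1.57 and 0 CPM at day 28 and 87.0, 209, 136 and 74.2 CPM in controls 1 to 4. The zeros of day 28 mice 1 and 3 allow levels of up to 1.67 and 0.613 CPM, taking 3 UMIs as the limit that a count of 0 allows, for counting error only. The mean of the 5 IRI mice was 1.13% of the control mean. The fitted log2 change was -5.73 (SE 0.71) at day 7 and -7.43 (SE 0.70) at day 28, a value that depends on the zero counts.

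Ugt2b38, a UGT2B family member, had 59.0 and 64.3 CPM at day 7, 144, 39.4 and 48.0 CPM at day 28 and 761, 711, 426 and 297 CPM in controls. The highest IRI value, that of day 28 mouse 1, was under the lowest control value, that of control 4. The log2 change was -3.40 (SE 0.57) at day 7 and -3.16 (SE 0.47) at day 28. Ugt2b37, its near neighbour, had 192 and 285 CPM at day 7, 229, 193 and 386 CPM at day 28 and 559.7, 321, 302 and 244 CPM in controls. Here the groups overlapped: day 7 mouse 2 and day 28 mouse 3 were above the lowest control, and control 1 stood above all other mice. The log2 change was -0.84 (SE 0.37) at day 7 and -0.68 (SE 0.32) at day 28.

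Ugt3a1 had 16.5 and 12.6 CPM at day 7, 51.8, 20.5 and 18.2 CPM at day 28 and 294, 360.3, 263 and 277 CPM in controls, with log2 changes of -4.58 (SE 0.44) and -3.64 (SE 0.35). Its neighbour Ugt3a2 had 31.9 and 61.9 CPM at day 7, 95.3, 36.7 and 80.7 CPM at day 28 and 289, 393, 381 and 284 CPM in controls, with log2 changes of -3.12 (SE 0.42) and -2.56 (SE 0.35). Neither gene's IRI values reached its control values. Of 14211 genes tested in this fit, 51.0% were called at day 7 and 45.3% at day 28 (edgeR, adjusted p under 0.05), and 24.8% and 21.2% of all tested genes were called lower in IRI. Within the v2 kit, day 28 mouse 1 against the 4 controls, a lone library taken to vary as they do, gave log2 changes of -2.25 for Ugt2b38, -0.96 for Ugt2b37, -2.84 for Ugt3a1 and -2.15 for Ugt3a2, and Ugt1a10 was at 0 in that mouse. With the kit as a term the day 7 values were -1.77 for Ugt2b38, -3.26 for Ugt3a1 and -2.49 for Ugt3a2, each smaller in size than without it. Those of Ugt2b37, -1.25, and Ugt1a10, -11.3, were larger in size than without it.

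**Figure D1:**
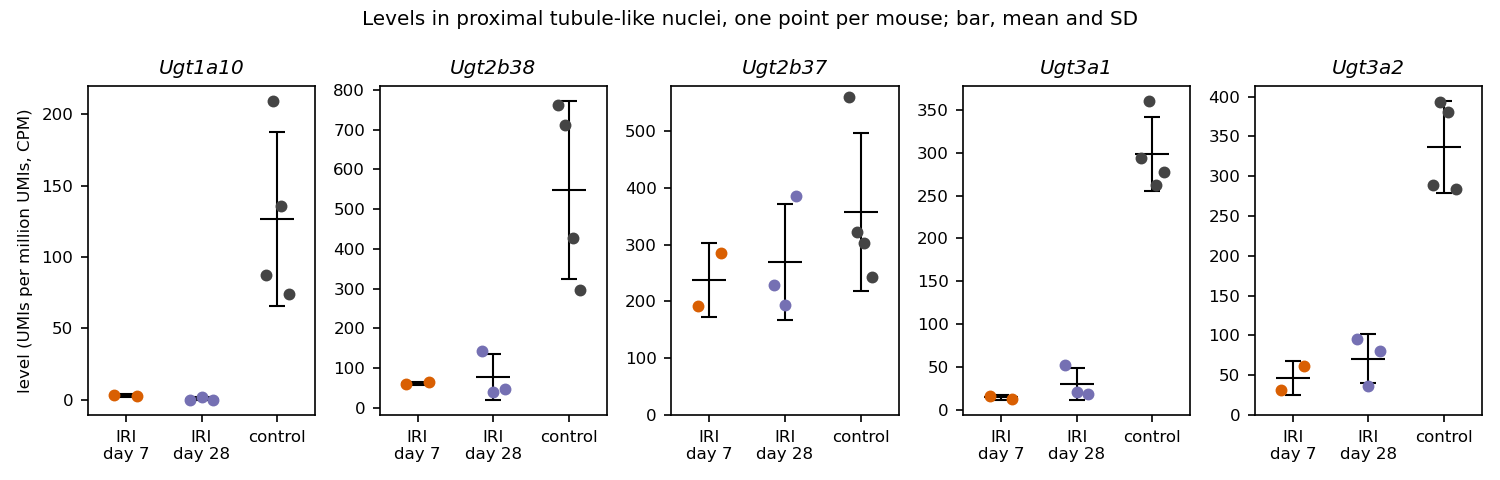
Level of each member in PT-like nuclei (y axis, CPM), 1 point per mouse, for day 7, day 28 and control, with the mean and SD of each group. The IRI points lie below all control points for Ugt1a10, Ugt2b38, Ugt3a1 and Ugt3a2, and the Ugt2b37 points overlap.

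Splitting PT-like nuclei by state divided the members further. Ugt3a1 was low in injured-state nuclei of IRI mice, with 1.87 and 3.73 CPM at day 7 and 1.67, 2.39 and 1.61 CPM at day 28, against 45.8 and 24.1 CPM and 152, 84.1 and 71.5 CPM in uninjured-state nuclei of the same mice. Ugt3a2 had 4.23 and 13.9 CPM at day 7 and 10.0, 4.91 and 7.50 CPM at day 28 in the injured state, against 87.3 and 125 CPM and 266, 149 and 316 CPM in the uninjured state. The injured level was the lower one in 5 of 5 mice for both genes. The log2 difference within mice was -4.78 (SE 0.32) for Ugt3a1 and -4.53 (SE 0.26) for Ugt3a2.

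Ugt2b38 was also lower in the injured state in 5 of 5 mice, with 14.1 and 22.6 CPM at day 7 and 46.0, 18.2 and 25.7 CPM at day 28, against 149 and 119 CPM and 339.8, 114 and 119.8 CPM in the uninjured state, a log2 difference of -2.80 (SE 0.16). Ugt2b37 had 138 and 176 CPM at day 7 and 231, 173 and 429 CPM at day 28 in the injured state, against 302 and 427 CPM and 224, 266 and 247 CPM in the uninjured state. Its injured level was lower in 3 of 5 mice and higher in day 28 mice 1 and 3, with a log2 difference of -0.56 (SE 0.26). Ugt1a10 was at 0 to 2.99 CPM in the injured state and at 0 to 3.98 CPM in the uninjured state of IRI mice, and its log2 difference of -0.13 (SE 0.45) turned to 0.039 without day 28 mouse 2. Of 13520 genes tested between the states, 37.0% were called and 18.9% were lower in the injured state. Injury and proximal tubule markers defined the states, and the UDP-glucuronosyltransferase genes had no part in the clusters.

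**Figure D2:**
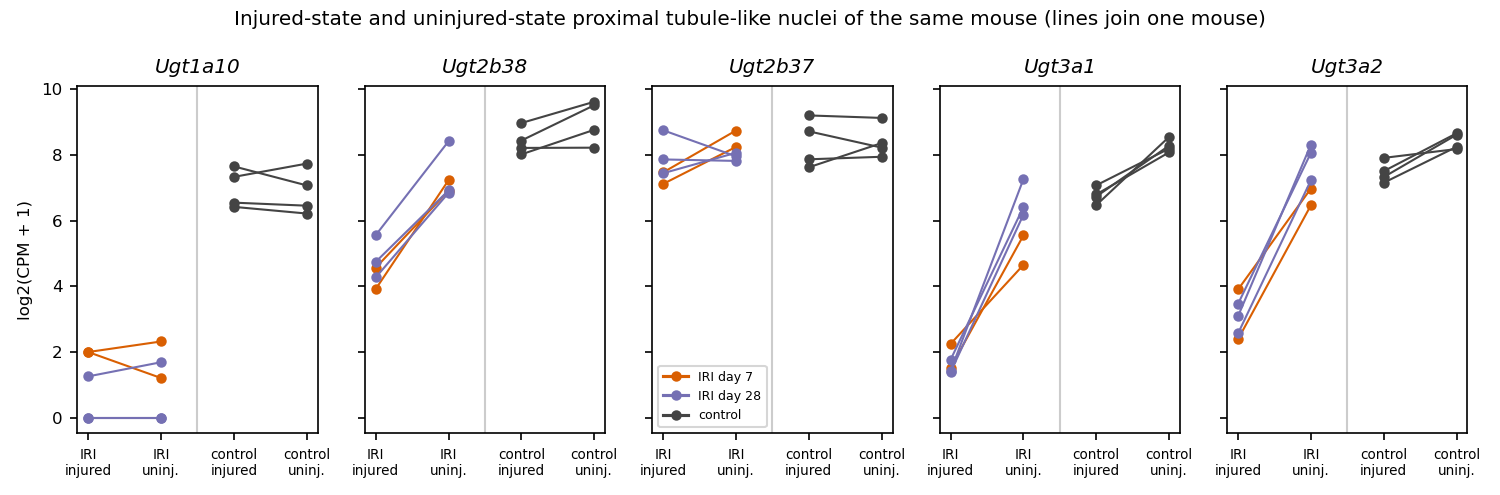
Level of each member, as log2(CPM + 1), in injured-state and uninjured-state PT-like nuclei, with a line joining the values of 1 mouse, for IRI mice on the left and controls on the right of each panel. In IRI mice the lines for Ugt2b38, Ugt3a1 and Ugt3a2 run upward from the injured to the uninjured state in every mouse, those for Ugt2b37 run both ways, and Ugt1a10 stays near 0.

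Levels in 2 other nephron classes of the same libraries are given beside these values. The part of RNA free in the droplets in any of them was not tested. Thick ascending limb-like nuclei of the same libraries had 188 and 219.7 CPM of Ugt2b37 at day 7, 209, 45.9 and 160.1 CPM at day 28 and 229, 142, 249.9 and 123 CPM in controls. The injured-state level of Ugt2b37 was below that in both day 7 mice and above it in all 3 day 28 mice. It was above the level in distal-like nuclei, 60.6 and 118 CPM at day 7 and 74.2, 42.2 and 72.7 CPM at day 28, in all 5 IRI mice. For Ugt3a1 and Ugt3a2 the injured-state level was below both of these classes in all 3 day 28 mice, with 29.0, 19.95 and 5.52 CPM of Ugt3a1 and 57.9, 9.98 and 19.3 CPM of Ugt3a2 in thick ascending limb-like nuclei at day 28. Ugt2b38 in the injured state was below the thick ascending limb-like level at day 7, 47.5 and 50.3 CPM, and above it in all 3 day 28 mice, 23.2, 18.0 and 24.8 CPM, though in mice 2 and 3 by less than 1 CPM. It was above the distal-like level, 60.6 and 20.9 CPM at day 7 and 80.4, 21.1 and 20.8 CPM at day 28, in 1 of 2 day 7 mice and 1 of 3 day 28 mice. In the uninjured state of IRI mice, Ugt2b37, Ugt2b38, Ugt3a1 and Ugt3a2 were above both classes in every mouse.

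The means of Ugt1a10, Ugt2b38, Ugt3a1 and Ugt3a2 were lower at both times after injury than in controls in every named class outside the proximal tubule. For Ugt2b37 this did not hold, with a higher mean in thick ascending limb-like nuclei at day 7 and in intercalated-like nuclei at day 28 than in controls. Thick ascending limb-like nuclei held no UMI of Ugt1a10 in any of the 5 IRI libraries, against 42.5, 119, 99.9 and 49.3 CPM in controls. This class included cluster 27, with 119, 44, 84 and 56 nuclei of controls 1 to 4 and 0 to 9 of each IRI mouse. Its nuclei had a median of 1.685 times the UMIs of their library's median nucleus. The S3 markers Cyp7b1 and Slc22a7 were among its top genes against other classes. The part of cluster 27 in the control levels of this class was not tested. Outside PT-like nuclei the named classes of IRI mice held 3 UMIs of Ugt1a10 in all, in endothelium-like nuclei at day 7. Control distal-like nuclei had 293 ± 88.1 CPM of Ugt2b38 (mean ± SD, n = 4 libraries), against 549 ± 224 in PT-like nuclei. For Ugt3a1 the values were 156 ± 82.5 in distal-like and 298 ± 43.2 in PT-like nuclei, and for Ugt3a2 169 ± 82.6 and 337 ± 58.0. Ugt2b37 came to 206 ± 97.2 CPM in distal-like and 357 ± 139 in PT-like nuclei, and Ugt1a10 to 50.2 ± 33.5 and 127 ± 61.3. Endothelium-like nuclei of controls, 180 in all, had 375 ± 247 CPM of Ugt2b38, 255 ± 167 of Ugt2b37, 221 ± 114 of Ugt3a1 and 204 ± 60.6 of Ugt3a2, each within an SD of the thick ascending limb-like or the distal-like mean. Ugt1a10 had 128 ± 68.0 CPM in these nuclei, on 50 UMIs. That is near its PT-like mean and above its thick ascending limb-like level of 77.6 ± 37.5 CPM. Podocyte-like, leukocyte-like, stroma-like and intercalated-like nuclei of controls numbered 22 to 123 in all, and at that depth their order was not resolved.

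The control nuclei of the injured state, 109 to 226 per mouse and nearly all of cluster 4, had 105, 87.6, 110.0 and 134 CPM of Ugt3a1 and 141, 180.4, 159 and 239 CPM of Ugt3a2. These lay below the uninjured-state level in 4 of 4 mice, and for Ugt3a1 below the thick ascending limb-like level in 3 of 4. Ugt2b38 had 500.3, 345, 258 and 295 CPM there, also below the uninjured-state level in 4 of 4 mice. Ugt1a10 in the same nuclei, 92.4, 159.8, 199.8 and 84.4 CPM, was above the uninjured-state level in 3 of 4 mice, and Ugt2b37, 588, 196, 419.8 and 232 CPM, in 2 of 4. Of the 8207 injured-state nuclei of IRI mice, 8164 were in clusters 0, 1, 2, 3, 10, 15, 19 and 20, which held 36 control nuclei, and 43 were in cluster 4, which held 709, so different clusters held most of the state in IRI and control mice. The state of controls also depended on the clustering. With clustering seed 1 the injured-state cluster rich in controls held 28 nuclei of control 4, against 216 in cluster 4. At Leiden resolution 1 such a cluster had 0 proximal tubule markers raised, against 7 in cluster 4. The control levels of this state are given for the main clustering only.

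Among uninjured-state nuclei the mean of every member over the 5 IRI mice was lower than in controls, without overlap between the groups for Ugt1a10 and Ugt3a1. For these nuclei too, the share of all genes without overlap is not given here. Ugt1a10 had 3.98 and 1.30 CPM at day 7, 0, 2.21 and 0 CPM at day 28 and 86.5, 212, 133 and 73.2 CPM in controls, with a log2 change of -6.37 (SE 0.51) over both times. The IRI mean was 1.19% of the control mean. Ugt3a1 had 310.1, 373, 269 and 291 CPM in controls, and the IRI values given above gave a log2 change of -3.40 (SE 0.39) at day 7 and -1.89 (SE 0.31) at day 28. Ugt3a2, with 302, 402, 390.3 and 288 CPM in controls, had log2 changes of -1.99 (SE 0.34) at day 7 and -0.80 (SE 0.28) at day 28, and the value of day 28 mouse 3 lay within the control range.

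For Ugt2b38, controls had 784, 728, 433 and 297 CPM. Day 28 mouse 1 was above control 4, and the other 4 IRI mice were below all controls, a log2 change of -2.34 (SE 0.52) at day 7 and -1.86 (SE 0.43) at day 28. Ugt2b37, with 557, 327, 297 and 245 CPM in controls, overlapped the IRI mice. Its mean was 364 CPM at day 7, 246 CPM at day 28 and 357 CPM in controls, so the day 7 mean was the higher one, while the fitted log2 change, which scales the libraries by TMM factors, was -0.25 (SE 0.32) at day 7 and -0.81 (SE 0.28) at day 28. Over both times, 43.0% of 13075 genes were called in this comparison, 19.6% as higher and 23.4% as lower in IRI. At day 7 42.3% were called and 22.2% were lower, and at day 28 26.6% were called and 13.1% were lower. With the kit as a term the log2 change over both times was -0.91 for Ugt2b38, -0.71 for Ugt2b37, -1.88 for Ugt3a1 and -1.23 for Ugt3a2, and the calls over all genes fell to 268. Different clusters held most uninjured-state nuclei of IRI and control mice, and only day 28 mouse 1 contributed more than 5 nuclei to any of the uninjured-state clusters held mostly by controls.

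The segments of the proximal tubule, from the convoluted S1 and S2 to the straight S3, carry different transporters and enzymes. In controls 3 members were lower in S3-like than in S1-S2-like nuclei, Ugt3a1 was higher, and Ugt3a2 did not pass the test. A further 7 of the 14 uninjured-state clusters met neither segment's rule and were not in this test. Their 5753 control nuclei had mean levels of 138 CPM of Ugt1a10, 630 of Ugt2b38, 466 of Ugt2b37, 350 of Ugt3a1 and 347 of Ugt3a2. S1-S2-like means were 125, 547, 219, 194 and 360 CPM in the same order of genes. The mean of these other clusters was higher than the S1-S2-like mean for every member but Ugt3a2. The segments came from the same 4 mice, with 84 to 213 S3-like and 99 to 1920 S1-S2-like nuclei per mouse, and no member had a part in the clusters. Ugt1a10 had 8.77, 32.3, 46.1 and 29.1 CPM in S3-like and 101, 196, 129 and 72.3 CPM in S1-S2-like nuclei of controls 1 to 4, a log2 difference of -2.46 (SE 0.26, adjusted p = 1.02e-08). Its S3-like values rest on 30 UMIs over the 4 mice, and its S1-S2-like values on 851. Ugt2b38 had 189, 396, 169 and 81.3 CPM in S3-like and 766, 636, 424 and 361 CPM in S1-S2-like nuclei, a log2 difference of -1.55 (SE 0.17, adjusted p = 1.93e-08). Ugt2b37 had 154, 178, 115 and 75.5 CPM in S3-like and 326, 208, 196 and 145 CPM in S1-S2-like nuclei, a log2 difference of -0.88 (SE 0.16, adjusted p = 6.1e-05). All 3 were lower in S3-like nuclei in 4 of 4 mice.

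Ugt3a1 had 456, 529, 572 and 407 CPM in S3-like and 167, 216, 175 and 217 CPM in S1-S2-like nuclei, higher in S3-like nuclei of 4 of 4 mice, with a log2 difference of 1.33 (SE 0.13, adjusted p = 2.14e-09). Ugt3a2 had 333, 484, 522 and 366 CPM in S3-like and 287, 369, 364 and 419 CPM in S1-S2-like nuclei, higher in 3 of 4 mice. Its log2 difference of 0.20 (SE 0.12, adjusted p = 0.274) had a 95% interval, by normal approximation, of -0.05 to 0.44. The difference between the 2 neighbours was not itself tested. These tests used edgeR's quasi-likelihood fit with the library as a block and Benjamini-Hochberg adjustment over 7126 genes, of which 27.3% were called, 14.7% as higher and 12.6% as lower in S3-like nuclei. The p-values measure the spread between mice and not the choice of clusters or of members. No member changed sides of the threshold in any of the 9 other settings tried, which include leaving out each control.

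**Figure D3:**
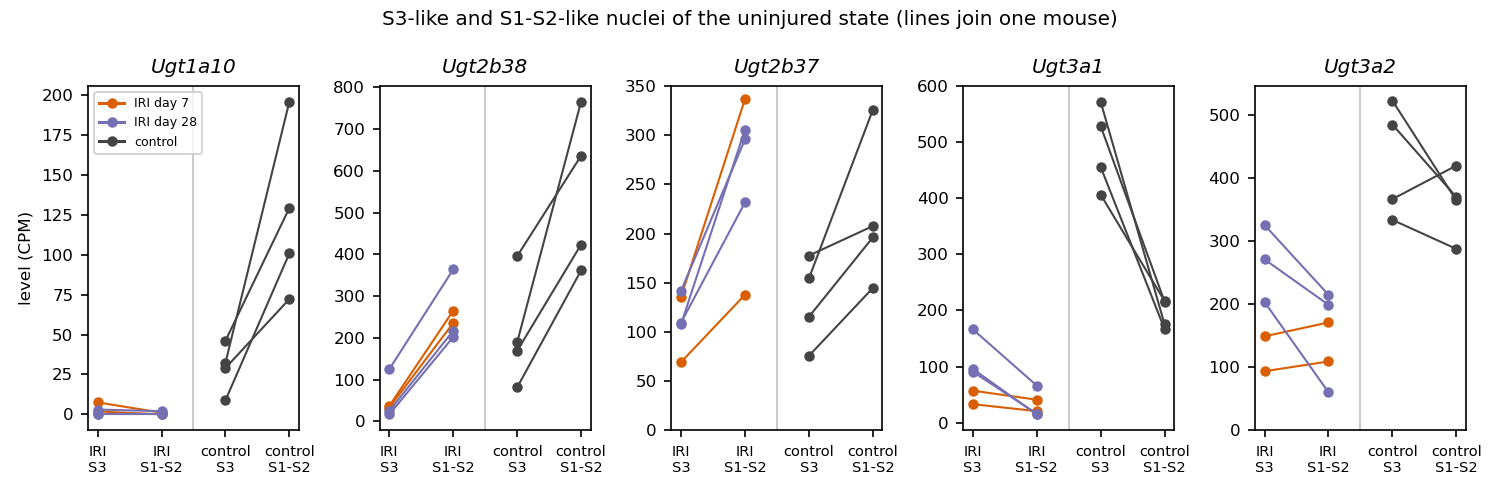
Level of each member (y axis, CPM) in S3-like and S1-S2-like nuclei of the uninjured state, with a line joining the values of 1 mouse, IRI mice on the left and controls on the right of each panel. In controls Ugt1a10, Ugt2b38 and Ugt2b37 are lower in S3-like nuclei in every mouse and Ugt3a1 is higher, and for Ugt3a2 the lines run both ways.

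In IRI mice the Ugt2b37, Ugt2b38 and Ugt3a1 values had the same order of segments in 5 of 5 mice. Ugt2b38 had 33.1 and 36.7 CPM at day 7 and 125, 16.7 and 25.002 CPM at day 28 in S3-like nuclei, against 236 and 265 CPM and 364, 202 and 217 CPM in S1-S2-like nuclei. Ugt2b37 had 69.1 and 136 CPM and 109, 108 and 142 CPM in S3-like nuclei, against 138 and 337 CPM and 232, 306 and 296 CPM in S1-S2-like nuclei. Both Ugt2b37 ranges overlapped those of the controls. Ugt3a1 had 57.1 and 33.0 CPM and 167, 90.9 and 95.8 CPM in S3-like nuclei, against 40.9 and 20.5 CPM and 66.2, 15.997 and 14.8 CPM in S1-S2-like nuclei, in both segments below every control. Ugt3a2 had 93.2 and 149 CPM and 271, 203 and 325 CPM in S3-like nuclei and was below every control in both segments too. For the segments as well, the share of all genes without overlap between IRI and control mice is not given here, so this is no trait of these genes alone. Ugt1a10 rested on 5 and 1 UMIs at day 7 and 0, 2 and 0 UMIs at day 28 in S3-like nuclei, against 1 and 0 UMIs and 0, 1 and 0 UMIs in S1-S2-like nuclei. Most S3-like nuclei of IRI mice were in cluster 18 and most of those of controls in cluster 6. S1-S2-like nuclei were mostly in cluster 9 in IRI mice and in clusters 7, 8, 22 and 33 in controls. Day 28 mouse 1 was the exception, with 72 of its 122 S3-like nuclei in cluster 6 and 23 of its 109 S1-S2-like nuclei in cluster 9, so a segment is not the same set of nuclei in both.

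Across clusters, Ugt2b37 covered a wide range within each state. Over the 8 injured-state clusters with at least 50 IRI nuclei it lay between 51.8 and 380.6 CPM with a median of 182 CPM, and over 10 uninjured-state clusters of control nuclei between 46.2 and 654 CPM. The highest injured-state cluster, cluster 15, drew 1070 nuclei from day 28 mouse 2, with 244 CPM, and 281 from day 28 mouse 3, with 766 CPM, and the 2 day 7 mice had 344 and 243 CPM there. Cluster 10, made up mostly of day 7 nuclei, had 87.4 and 84.7 CPM of Ugt2b37 in the 2 day 7 mice, and cluster 2 had 251 and 393 CPM in the same mice. Ugt3a1 lay between 0.787 and 7.93 CPM in the injured-state clusters of IRI nuclei and between 25.4 and 243.9 CPM in the uninjured-state ones. Ugt3a2 lay between 4.84 and 14.3 CPM and between 69.2 and 385 CPM in the same clusters, and Ugt2b38 between 4.84 and 41.9 CPM and between 28.6 and 541 CPM. Ugt1a10 lay between 0 and 10.4 CPM in all IRI clusters of either state, against 23.4 to 174 CPM in the uninjured-state clusters of controls.

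Few clusters held both kinds of mice. Cluster 6, S3-like, held 567 control nuclei and 80 IRI nuclei, 72 of them from day 28 mouse 1, a v2 library like the controls. Its IRI nuclei had 214 CPM of Ugt3a1, 385 CPM of Ugt3a2 and 148 CPM of Ugt2b37, against 493 CPM of Ugt3a1, 411 CPM of Ugt3a2 and 141 CPM of Ugt2b37 in its control nuclei. Cluster 14 held 118 IRI nuclei, 114 of them from the same mouse, with 244 CPM of Ugt3a1, 541 CPM of Ugt2b38 and 0 UMIs of Ugt1a10. Its 697 control nuclei had 365 CPM of Ugt3a1, 605 CPM of Ugt2b38 and 90.4 CPM of Ugt1a10. The IRI values of both clusters come nearly all from that mouse and carry no test.

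**Figure D4:**
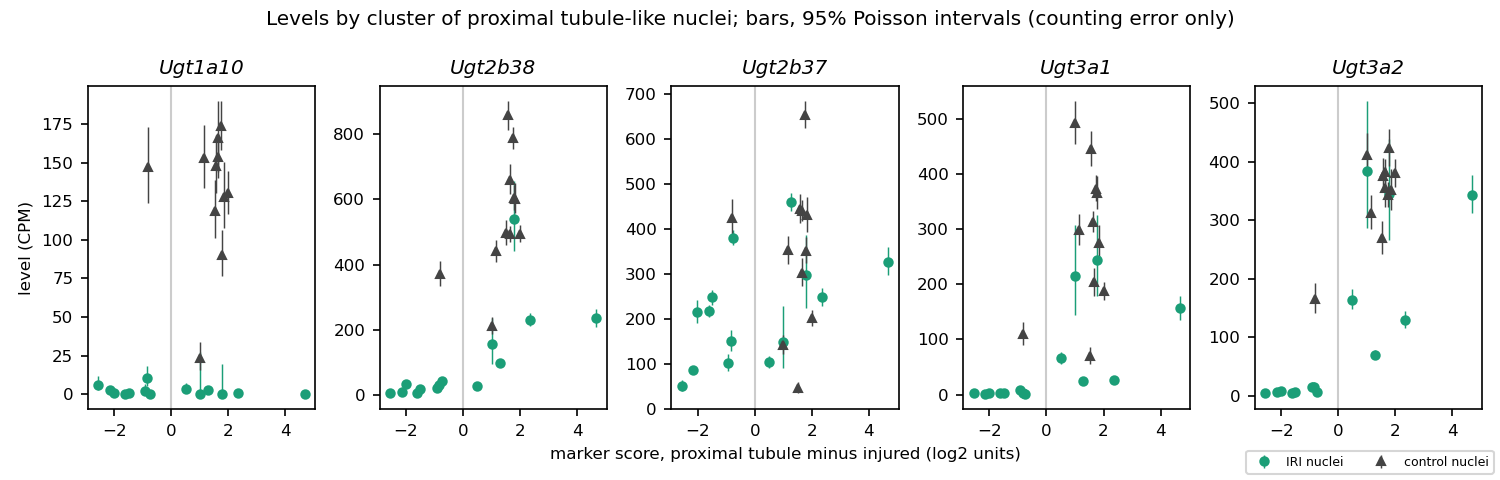
Level of each member (y axis, CPM) in each PT-like cluster, for IRI nuclei (circles) and control nuclei (triangles) of at least 50 nuclei, against the cluster's proximal tubule score minus its injury score (x axis, log2 units). Bars are 95% Poisson intervals for counting error only; Ugt3a1 and Ugt3a2 circles left of 0 lie under 15 CPM, and Ugt2b37 circles there reach 381 CPM.

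Between the times after injury no member passed the test. The day 28 against day 7 log2 change in PT-like nuclei was -1.71 (SE 0.81, adjusted p = 0.25) for Ugt1a10 and 0.25 (SE 0.51, adjusted p = 0.819) for Ugt2b38. For Ugt2b37 it was 0.16 (SE 0.38, adjusted p = 0.84), for Ugt3a1 0.94 (SE 0.39, adjusted p = 0.187) and for Ugt3a2 0.56 (SE 0.39, adjusted p = 0.431). The 95% intervals ran -3.30 to -0.12 for Ugt1a10, -0.75 to 1.25 for Ugt2b38, -0.58 to 0.91 for Ugt2b37, 0.18 to 1.70 for Ugt3a1 and -0.20 to 1.32 for Ugt3a2. They are normal approximations from the SE, narrower than the F test with so few mice would give. Over all genes, 5.68% of 14211 genes were called, 4.31% as higher and 1.37% as lower at day 28. Ugt1a10 gave -6.91 (adjusted p = 0.047) without day 28 mouse 2, where the 2 remaining day 28 libraries held no UMI of it. The Ugt2b38 value changed sign to -0.49 without day 28 mouse 1, and that of Ugt2b37 to -0.18 without day 28 mouse 3.

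Genes that act with these enzymes were followed in 5 lists, chosen with earlier results of these data known. Only Ugt genes were kept out of the clustering, so the other listed genes could help to form the states and segments compared. Their p-values do not allow for either. Of 17 other Ugt genes, 7 were listed in either table and 4 could be tested. At day 28 all 4 fell against controls, beside 21.2% of all genes, with a median log2 change of -1.71 against 0.04 over all genes tested. Ugt1a7c, which shares the Ugt1a locus, changed by -2.06 (SE 0.67, adjusted p = 0.0248), Ugt2a3 by -1.59 (SE 0.49, adjusted p = 0.02), Ugt2b5 by -0.86 (SE 0.28, adjusted p = 0.0259) and Ugt8a, the galactosyltransferase of myelin lipid synthesis, by -1.84 (SE 0.27, adjusted p = 0.000183) (edgeR). The Ugt1a7c value rests on 179 UMIs in controls, whose levels ran from 0 to 10.9 CPM, and on 41 UMIs at day 28. At day 7, 3 of 4 fell, beside 24.8% of all genes, and Ugt2a3 changed by -2.06 (SE 0.55, adjusted p = 0.00835). In the v2 libraries, where 1 IRI library was set against 4 controls, the day 28 values were -1.91 for Ugt1a7c, -0.99 for Ugt2a3, -0.97 for Ugt2b5 and -1.55 for Ugt8a, and that of Ugt8a alone passed the threshold. With the kit as a term none of the 4 passed it at day 7, with -1.28 for Ugt2a3, -1.37 for Ugt2b5 and -0.79 for Ugt8a. Between states 3 of 4 were lower in the injured state, led by Ugt2a3 at -2.18 (SE 0.42, adjusted p = 0.0025), while Ugt1a7c gave -0.02 (SE 0.32, adjusted p = 0.969). Of 2 tested between segments, Ugt2b5 was lower in S3-like nuclei at -1.22 (SE 0.34, adjusted p = 0.0066) and Ugt8a higher at 0.58 (SE 0.12, adjusted p = 0.000509).

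Genes listed for their link to the UDP-sugar went both ways. They were Ugdh, Ugp2, Pgm1, Pgm2, Slc35d1, Slc35d2, Slc35b1, Uxs1 and Gusb, and not all of them supply it. Of 9 genes, 1 rose and 3 fell at day 28 against controls, and 1 rose and 3 fell at day 7, beside 24.2% and 21.2% of all genes at day 28 and 26.3% and 24.8% at day 7. Ugdh, which makes UDP-glucuronic acid, changed by -1.06 (SE 0.23, adjusted p = 0.00302) at day 28 and by -0.65 (SE 0.26, adjusted p = 0.0523) at day 7. Ugp2, which makes its precursor UDP-glucose, changed by -1.16 (SE 0.26, adjusted p = 0.00362) at day 28, and Slc35d1, a carrier of UDP-sugars into the endoplasmic reticulum, by -1.40 (SE 0.20, adjusted p = 0.00017). Pgm1, a phosphoglucomutase, rose by 1.93 (SE 0.35, adjusted p = 0.000938) (edgeR). Its mean in PT-like nuclei was 2.57 CPM in controls and 10.7 CPM at day 28, against 29.2 and 25.4 CPM of Pgm2. In the injured state 5 of 9 were lower and none was higher, with Slc35d1 at -0.49 (SE 0.09, adjusted p = 0.00129) and Ugp2 at -0.49 (SE 0.09, adjusted p = 0.00157), beside 18.9% of all genes. In S3-like nuclei of controls 3 of 6 were higher, among them Ugdh at 1.01 (SE 0.22, adjusted p = 0.000595) and Slc35d2 at 1.43 (SE 0.19, adjusted p = 6.22e-07), and Ugp2 was lower at -0.55 (SE 0.16, adjusted p = 0.00804). In the v2 libraries the day 28 values were 1.67 for Pgm1, -1.09 for Ugdh, -1.14 for Ugp2 and -1.49 for Slc35d1, and with 1 IRI library only that of Slc35d1 passed the threshold.

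Of 10 listed transcription factors known to act on Ugt genes, 8 were tested. The ligand-activated Nr1i2 (PXR) and Ahr rose at day 28, by 2.53 (SE 0.31, adjusted p = 5.35e-05) and 2.16 (SE 0.31, adjusted p = 0.00017), and at day 7, by 2.16 (SE 0.33, adjusted p = 0.000252) and 2.14 (SE 0.33, adjusted p = 0.000266). Ppara, the fatty acid receptor, changed by -1.29 (SE 0.25, adjusted p = 0.00125) at day 28 and Nr1h4, the bile acid receptor, by -0.96 (SE 0.29, adjusted p = 0.0181). At the same time point Hnf4a, a nuclear receptor of hepatocytes and proximal tubule cells, changed by -0.70 (SE 0.20, adjusted p = 0.0123). In all, 2 rose and 3 fell at day 28, beside 24.2% and 21.2% of all genes, and 2 rose and 2 fell at day 7, beside 26.3% and 24.8% (edgeR). In the v2 libraries the day 28 values were 2.27 for Nr1i2, 1.86 for Ahr, -1.06 for Hnf4a, -1.27 for Ppara and -0.56 for Nr1h4, and the last 3 did not pass the threshold there. With the kit as a term the day 7 values of Ahr, 1.75, Ppara, -1.10, and Nr1h4, -0.29, did not pass it. Between states 4 of 8 were lower in injured nuclei and 1 was higher, beside 18.9% and 18.2% of all genes, led by Ppara at -1.68 (SE 0.14, adjusted p = 1.12e-05) and Hnf4a at -1.53 (SE 0.14, adjusted p = 2.24e-05). In uninjured-state nuclei Hnf4a did not pass the test against controls, at 0.18 (SE 0.20, adjusted p = 0.48), and 2 of 8 rose and none fell, beside 19.6% and 23.4% of all genes. Those were Nr1i2 at 2.46 (SE 0.32, adjusted p = 7.9e-05) and Ahr at 1.74 (SE 0.42, adjusted p = 0.00492). With the kit as a term their values were 2.25 and 1.52, neither past the threshold (adjusted p = 0.0991 and 0.421). Between segments 5 were tested, beside 12.6% of all genes called lower, and Ppara was lower in S3-like nuclei at -0.80 (SE 0.14, adjusted p = 3.41e-05) and Nr1h4 at -0.69 (SE 0.12, adjusted p = 4.92e-05).

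Of 10 transporters that carry glucuronides and other organic anions, 2 rose and 6 fell at day 28, beside 24.2% and 21.2% of all genes. The efflux pumps Abcc4 and Abcc3 rose by 2.90 (SE 0.26, adjusted p = 5.09e-06) and 2.71 (SE 0.60, adjusted p = 0.00304), and the uptake carriers Slc22a6 and Slc22a7, which also served to name the classes, changed by -2.57 (SE 0.30, adjusted p = 3.44e-05) and -3.09 (SE 0.87, adjusted p = 0.0119). In the injured state 8 of 10 were lower and 1 was higher, beside 18.9% and 18.2% of all genes, with Slc22a8 at -4.52 (SE 0.37, adjusted p = 1.12e-05) and Slco4c1 at -3.54 (SE 0.24, adjusted p = 4.95e-06). Between segments 9 were tested, and 5 were higher and 4 lower in S3-like nuclei, beside 14.7% and 12.6% of all genes, with Slco4c1 at 5.59 (SE 0.56, adjusted p = 3.6e-09) and Slc22a8 at -2.38 (SE 0.33, adjusted p = 1.29e-06). Without Slc22a6 and Slc22a7, whose part in naming the classes fixes some of these counts, 2 of 8 rose and 4 fell at day 28, 1 of 8 was higher and 6 were lower in the injured state, and 4 of 7 were higher and 3 lower in S3-like nuclei. The remaining transporters were still open to the clustering, and Slco4c1 was among the top genes of cluster 18, which is S3-like. The part of this in the state and segment counts was not tested. Of 15 other listed conjugating and detoxifying enzymes, 14 were tested, and 2 rose and 9 fell at day 28, beside 24.2% and 21.2% of all genes, and 2 rose and 8 fell at day 7, beside 26.3% and 24.8%. The sulfotransferase Sult1a1 rose by 2.26 (SE 0.62, adjusted p = 0.0108) and the epoxide hydrolase Ephx1 by 2.16 (SE 0.45, adjusted p = 0.00221), while Gstk1, a glutathione transferase, changed by -2.29 (SE 0.39, adjusted p = 0.000598) and Glyat, a glycine transferase, by -1.83 (SE 0.24, adjusted p = 8.6e-05). Sult1a1 was also higher in the injured state, at 1.98 (SE 0.45, adjusted p = 0.00583). The N-acetyltransferase gene Nat8 was the only gene of these 5 lists called between the times, at 2.37 (SE 0.63, adjusted p = 0.0476), and the call was lost in 8 of 18 other settings. In the v2 libraries the day 28 values of the transporters were 2.11 for Abcc4, -1.93 for Slc22a6 and -1.24 for Slc22a7, the last not past the threshold, and Abcc3 was not among the genes tested. Those of the enzymes were 2.90 for Sult1a1, 1.47 for Ephx1, -2.61 for Gstk1 and -1.35 for Glyat, of which Gstk1 and Glyat passed the threshold with 1 IRI library.

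**Figure D5:**
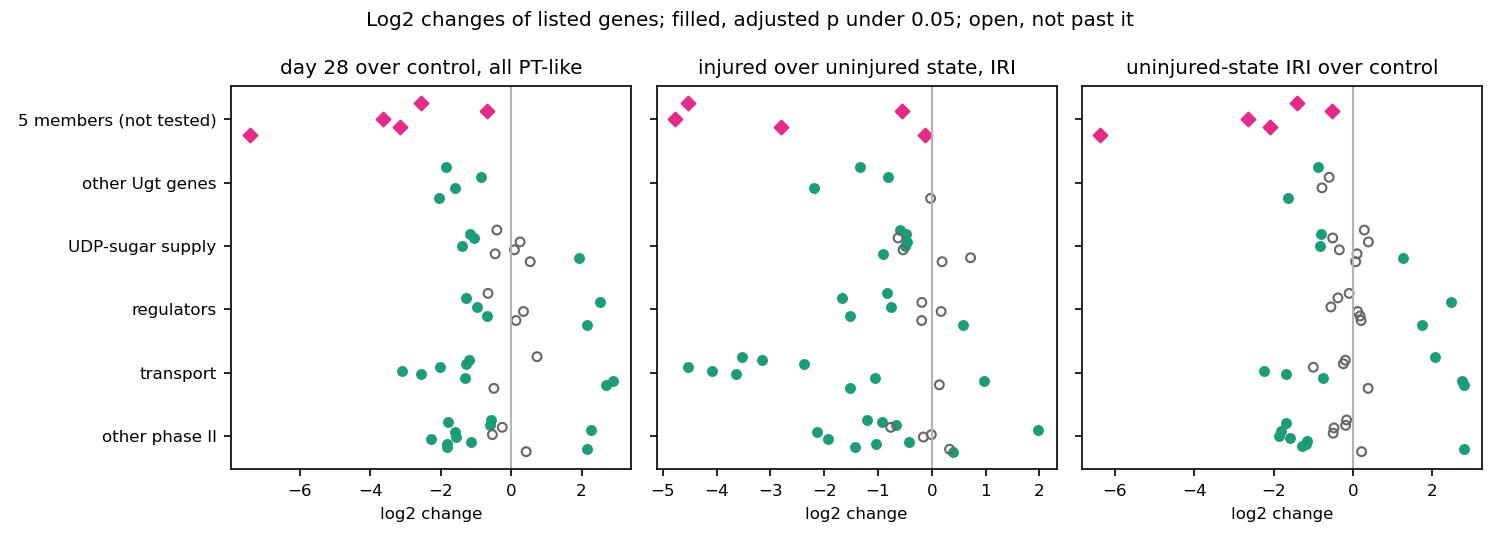
Log2 change (x axis) of the 5 members (diamonds, not tested) and of the genes of the 5 lists (circles, filled where the adjusted p was under 0.05), for day 28 over control in PT-like nuclei, injured over uninjured state in IRI mice, and uninjured-state IRI over control nuclei. Members span -7.43 to -0.68 in the first panel, and each list other than the other Ugt genes has called genes on both sides of 0 there.

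The genes whose pattern over the 9 PT-like sums was closest to each member were found by the mean absolute difference in log2(CPM + 5), each gene centred on its control mean. For Ugt1a10 they were Col6a6 (0.46), Ttr (0.48) and Hsd3b2 (0.56), where the median over all genes was 2.74. For Ugt2b38 they were Keg1 (0.24), mt-Cytb (0.32) and Gatm (0.35), with a median of 2.00. For Ugt3a1 they were Hsd3b2 (0.32), Selenop (0.34) and Slc6a19 (0.34), with a median of 2.20, and for Ugt3a2 Amacr (0.22), AI314278 (0.28) and Slc34a1 (0.29), with a median of 1.65. Those of Ugt2b37 were Ncoa3 (0.23), Smim5 (0.23) and Fbxo3 (0.24), where the median over all genes was 0.67. Gatm, Slc6a19 and Slc34a1 were among the markers that named the S1-S2-like class; Slc34a1 also belonged to the proximal tubule list. The 9 points of each gene share their libraries and depths.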

How the data were processed

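Single-nucleus RNA was measured in sorted kidney nuclei of 9 mice. The deposited files are 2 tables, for IRI and for control, of whole-number UMI counts with genes in rows and nuclei in columns; Cell Ranger, STAR, Seurat and mm10 are named in the submitters' processing notes, and whether intron reads or strand were used is not given in the sources used here. Ugt1a genes share 3′ exons, so how such reads were counted bears on Ugt1a10.

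The members and gene lists were chosen with earlier results of these data known. Nuclei were clustered with scanpy 1.11.5 (2000 variable genes, 30 components, 20 neighbours, Leiden resolution 2) without any Ugt gene. No doublet caller was run; per the labels' protocols doublets were gated out at the sorter. Clusters were named from marker lists, and the naming and segment rules were chosen after the data were seen: a segment needed its own list's score above 0, at least 3 raised markers and a lead of 0.5 over the other list. Counts were summed per library and class and fitted with edgeR 4.0.16 (R 4.3.3, quasi-likelihood test, TMM factors 0.794 to 1.13, adjusted p under 0.05 by Benjamini-Hochberg) over the genes that passed its filter on low counts, out of 16939 in both tables. State and segment fits had the library as a block. The fit was tested on simulated counts. The kit of a library was read from 3 to 22 of its barcodes, since the labels name both kits without assigning them.

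Library totals were 1833617 to 14641038 UMIs. Poisson intervals (95%) and the floor of 3 counts cover counting error only, and p-values measure the spread between these mice. Alternatives were DESeq2 1.42.0, other size factors, no filter on low counts, at least 1000 UMIs per nucleus, all nuclei, another clustering seed or resolution, the kit as a term, v2 libraries alone, a replicate block and leaving out each library. Named genes were the members, up to 4 called genes with the greatest change per list and comparison, 4 fixed genes (Ugdh, Ugp2, Slc35d1, Hnf4a), and 3 genes of closest pattern per member. Some listed genes are not reported here.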

Additional observations from a re-analysis of the deposited data

Results flagged for a closer look

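The difference between S3-like and S1-S2-like nuclei went opposite ways in every mouse of a pair of groups for 2 members. For Ugt1a10 it averaged 4.14 CPM at day 7 (1.83 and 6.44 in the 2 mice) and -95.6 CPM in controls (-164 to -43.2 in 4 mice), and the day 7 values rest on 5 and 1 UMIs in S3-like nuclei. For Ugt3a2 it averaged 109 CPM at day 28 (72.0 to 143 in 3 mice) and -18.7 CPM at day 7 (-22.0 and -15.5 in 2 mice). The difference between the groups was not tested in either case. Over 30 sets of 4 control values, no mouse stood apart by Dixon's criterion.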

How the results depend on the processing

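With the kit as a term, calls over all genes came to 1928 against 7253 in the fit reported at day 7 against control, 3053 against 6443 at day 28, and, in the uninjured state, 268 against 5628 over both times, 319 against 5525 at day 7 and 321 against 3479 at day 28. Within v2 libraries day 28 gave 1974. Leaving out 1 library gave 4556 to 8192 at day 7 (the lowest without day 7 mouse 1, and 4619 without mouse 2), 1257 to 2115 against 1946 between segments (the lowest without control 1), 2694 to 6208 in the uninjured state at day 7 (2694 without day 7 mouse 2, 3069 without mouse 1) and 1620 to 4572 at day 28 (1620 without day 28 mouse 2, 2163 without mouse 3). Day 28 against day 7 gave 807 calls, 1426 with DESeq2, and 167 to 980 without 1 library, with 331 without day 7 mouse 1 and 167 without day 7 mouse 2.

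Replicate numbers did not pair the mice. By the numbers of the titles, which count the sham mice apart and give control 1 none, 7 same-number correlations ran from -0.22 to 0.12, and by the control numbers used here 7 ran from -0.26 to 0.026. The replicate block, by the title numbers, gave 504 calls between the times, 5711 at day 7 and 4961 at day 28.

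The sign turned for Ugt2b38 between the times (-0.49 with the kit, -0.0018 with the replicate block, and -0.49 to 0.56 without 1 library, the lowest without day 28 mouse 1) and for Ugt2b37 (-0.081 with the replicate block, and -0.19 to 0.41 without 1 library, with -0.051 without day 7 mouse 1). It also turned for Ugt1a10 between states (-0.14 to 0.039 without 1 library, the highest without day 28 mouse 2), and with the kit for Slc35b1 at day 7 (0.37) and, in the uninjured state, for Hnf4a (-0.40), Pgm1 (-0.25) and Slc22a7 (0.28). The cause was not tested. Over all settings, 1327 of 1478 values of other genes kept their direction and side of the threshold, and 554 of 591 member values did so or, where not tested, moved by less than their spread. Control 4, at a median of 668 UMIs per nucleus, limits its S1-S2-like values most.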
